A study of Mus musculus with 12 samples.

Results

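The chemokines described here are 10 genes, Ccl2, Ccl5, Ccl6, Ccl9, Ccl20, Cxcl1, Cxcl9, Cxcl10, Cxcl12 and Cxcl14, in the whole forestomach. Adult, wild-type mice of strain C57BL/6J were used. They were found by gene name on the array, which gave 12 of the 41174 probes, because Ccl5 and Cxcl12 have 2 probes each. All 10 genes passed the filter on dim probes and are among the 20724 genes tested. The forestomach is the squamous, keratinised part of the rodent stomach. RNA of 4 control samples came from mice drinking a supersaccharin solution with 0% alcohol. RNA of 4 further samples came from mice given 20% alcohol in that solution for 4 weeks, and RNA of another 4 from mice given 15% alcohol for 40 weeks, for which the labels name no saccharin. The study asked whether drinking alcohol alters gene expression in this organ. The 40-week group has no controls of its own, so the length of drinking, the dose and the vehicle cannot be told apart, nor can the age of the mice. The labels do not state that replicates are separate animals, and a p-value here therefore rests on spread that may be technical.

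Chemokines are small secreted proteins that draw leukocytes along a gradient through G protein-coupled receptors. Some are induced by interferons or by NF-kB during inflammation, such as Cxcl9 and Cxcl10, which attract activated T cells through CXCR3, and Cxcl1, which attracts neutrophils. Others, such as Cxcl12 and Cxcl14, are made steadily by stroma or epithelium, and Ccl6 and Ccl9 are CC chemokines made largely by myeloid cells in mice.

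Each value is the log2 of the Cy5 signal, from forestomach RNA, over the Cy3 signal, from a commercial reference RNA pool, so a ratio of 0 means equal signal. Ratios of different probes are not compared with each other. For the control and 4-week arrays, spot signals were used, with a median Cy5 signal of 112 to 151 on control and 42.4 to 112 on 4-week arrays. For the 40-week arrays only the deposited ratios were used. Those columns have a standard deviation over probes of 1.02 to 1.08, against 1.48 to 1.73 in the other 8 columns, so the 40-week changes of the 10 genes are given also after scaling all arrays to one spread. Whether the narrower spread arose in the RNA or in the measurement was not tested. Squamous epithelium markers (12 of 12) and smooth muscle markers (10 of 10) were well above background on all 4 control arrays. Several arrays stood apart. In control replicate 3, 15 of 15 pancreatic acinar markers were over 1 log2 unit above the rest of the group, along with 6 of 12 T cell and 5 of 8 NK cell markers. Control replicate 4 and 4-week replicate 2 had higher glandular stomach and type I interferon genes. In the 40-week group, replicates 3 and 4 had Xist, the transcript of the inactive X chromosome, at ratios of 1.96 and 1.55, against -9.70 to -5.40 on the other 10 arrays. Ddx3y, a Y-linked gene, read -4.26 and -4.02 there and 0.49 to 1.49 elsewhere. The labels give no sex. Control and 4-week arrays lay on different slides, so slide and group cannot be told apart.

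The upstream sequences of the chemokines whose values differed most between arrays are shown because Cxcl10, Cxcl9 and Cxcl1 are textbook targets of interferon and NF-kB. RefSeq sequence (build GRCm38.p6) was at hand for 8 of the 10 genes, all but Ccl2 and Ccl5. In the 250 bases before the start site, capitals mark matches to an interferon-stimulated response element (GAAANNGAAA) or to the NF-kB motif, searched on both strands together with the gamma-activated site (TTCNNNGAA). The Cxcl10 window, chr5:92348890-92349139 on the minus strand, holds the response element 213 to 204 bases before the start and NF-kB matches at 159 to 150 and at 103 to 94. The Cxcl1 window, chr5:90890995-90891244 on the plus strand, holds overlapping NF-kB matches from 71 to 61 bases before the start. The Cxcl9 window, chr5:92328080-92328329 on the minus strand, holds no full match to any of these motifs.
Cxcl10: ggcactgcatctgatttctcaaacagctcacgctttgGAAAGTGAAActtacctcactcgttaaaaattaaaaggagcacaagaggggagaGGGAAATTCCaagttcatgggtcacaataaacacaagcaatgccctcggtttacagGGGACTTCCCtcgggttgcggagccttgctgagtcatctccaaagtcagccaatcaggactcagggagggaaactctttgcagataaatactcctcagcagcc
Cxcl1: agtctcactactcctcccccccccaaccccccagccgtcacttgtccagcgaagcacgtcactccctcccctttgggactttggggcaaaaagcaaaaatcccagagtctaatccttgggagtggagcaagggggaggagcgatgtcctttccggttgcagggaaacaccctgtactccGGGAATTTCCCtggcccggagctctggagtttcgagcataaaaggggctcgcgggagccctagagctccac
Cxcl9: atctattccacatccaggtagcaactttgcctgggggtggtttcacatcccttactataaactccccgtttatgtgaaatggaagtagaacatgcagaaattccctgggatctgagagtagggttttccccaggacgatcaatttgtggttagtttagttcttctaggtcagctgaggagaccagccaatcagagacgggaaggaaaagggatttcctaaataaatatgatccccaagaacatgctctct
Among 32851 promoter windows of this length, 3.9% held the NF-kB motif, 2.98% the response element and 7.02% the gamma-activated site. Of the other 5 genes, Ccl20 (80 to 71 bases before the start) and Ccl9 (35 to 26) held an NF-kB match, and Cxcl14 held a response element (172 to 163) and a gamma-activated site (191 to 183). No match was found for Ccl6 and Cxcl12. A match describes the letters and not a site in use. Stretches close to a motif that do not match every letter were not counted, so a window without a match may still hold a site.

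After 4 weeks of 20% alcohol, no chemokine passed the test. The smallest p-values were those of Ccl6, which was lower, and Cxcl14, which was higher. By limma on the scanner ratios, 0 of 10 genes had an adjusted p under 0.05, where 1.10% of all 20724 genes tested did. An unadjusted p under 0.05 was reached by 2 of 10, and by 3728 of all 20724 genes. The median change over the 10 genes was -0.04 and over all genes -0.02. Only for Ccl6 did the 4 control and 4 alcohol values not overlap, which 11.8% of all genes also showed.

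At 40 weeks of 15% alcohol, Cxcl10 and Ccl2 rose and Ccl6, Ccl9 and Cxcl9 fell against control. That is 5 of 10 genes called by limma on the deposited ratios (2 higher, 3 lower), and 42.6% of all genes tested were called (18.9% higher, 23.7% lower), so the share is near the background. The ranges of 40-week and control values did not overlap for 4 genes (Ccl2, Ccl6, Ccl9 and Ccl20), as for 42.4% of all genes. After scaling to one spread 5 genes were again called, Ccl20 in place of Cxcl9, beside 38.3% of all genes. Against 4 weeks, 6 of 10 were called (Cxcl10, Ccl2 and Ccl5 higher, Ccl6, Ccl9 and Ccl20 lower), beside 41.6% of all genes (18.6% higher, 23.0% lower), and 5 of them after scaling, beside 40.8%. The groups did not overlap for those 6 genes, as for 45.2% of all genes. Both alcohol groups were compared with the same 4 control samples, so their changes are not independent of each other.

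**Figure D1:**
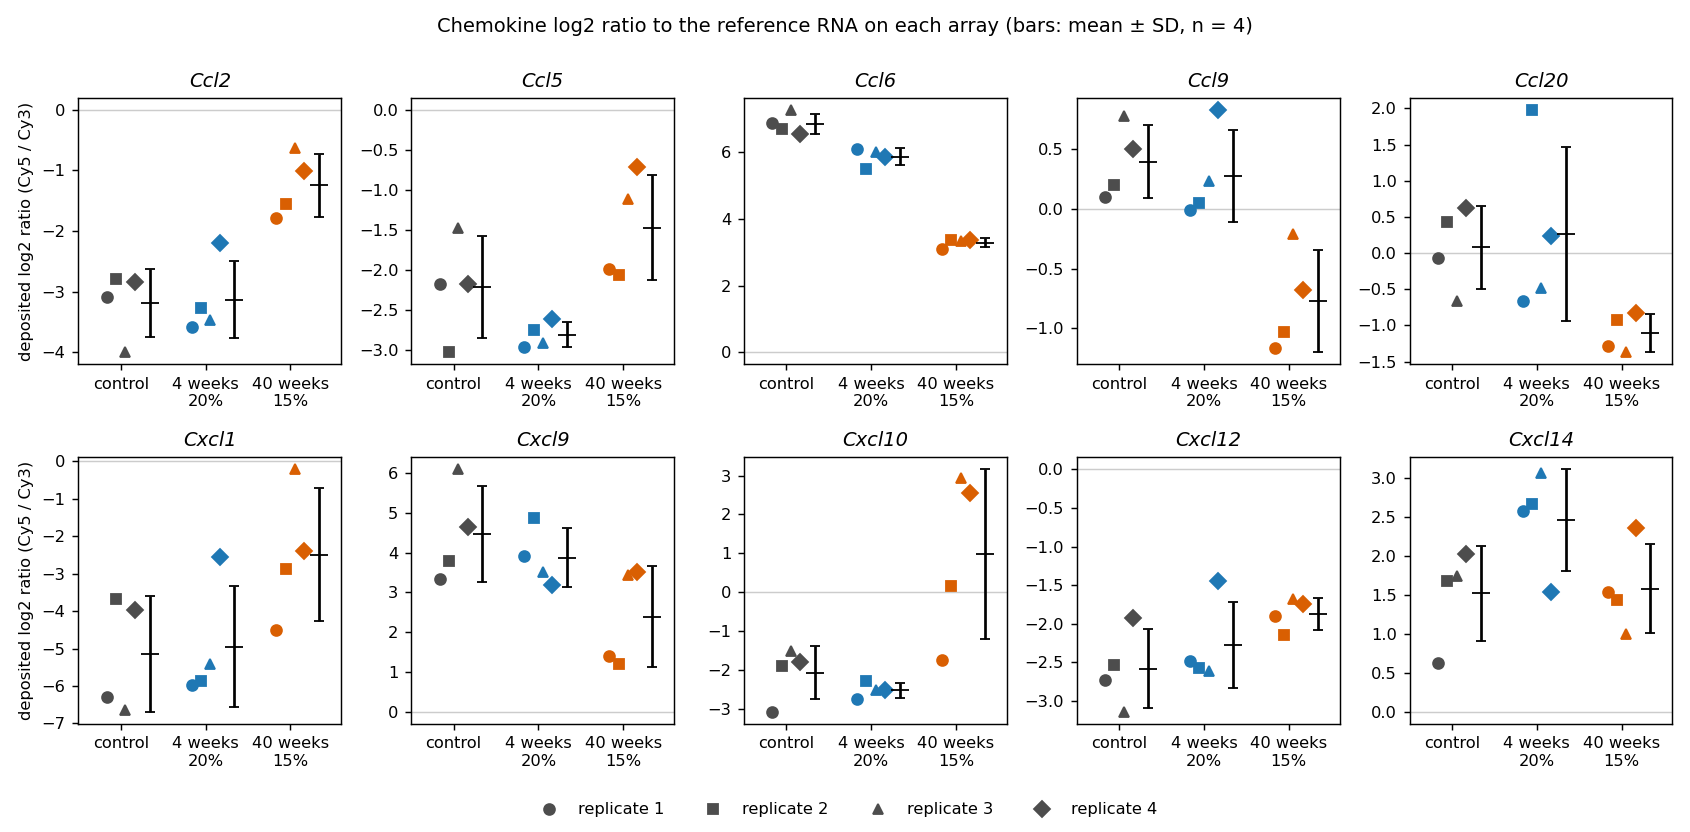
Deposited log2 ratio of forestomach over reference RNA on each array (y axis, one scale per gene) for the 10 chemokines in control, 4-week 20% and 40-week 15% alcohol samples. Symbols give the replicate and bars the mean ± SD (n = 4). The 40-week Ccl6 values (3.10 to 3.38) lie below all others, and Cxcl10 ranges from -1.73 to 2.94 at 40 weeks.

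**Figure D2:**
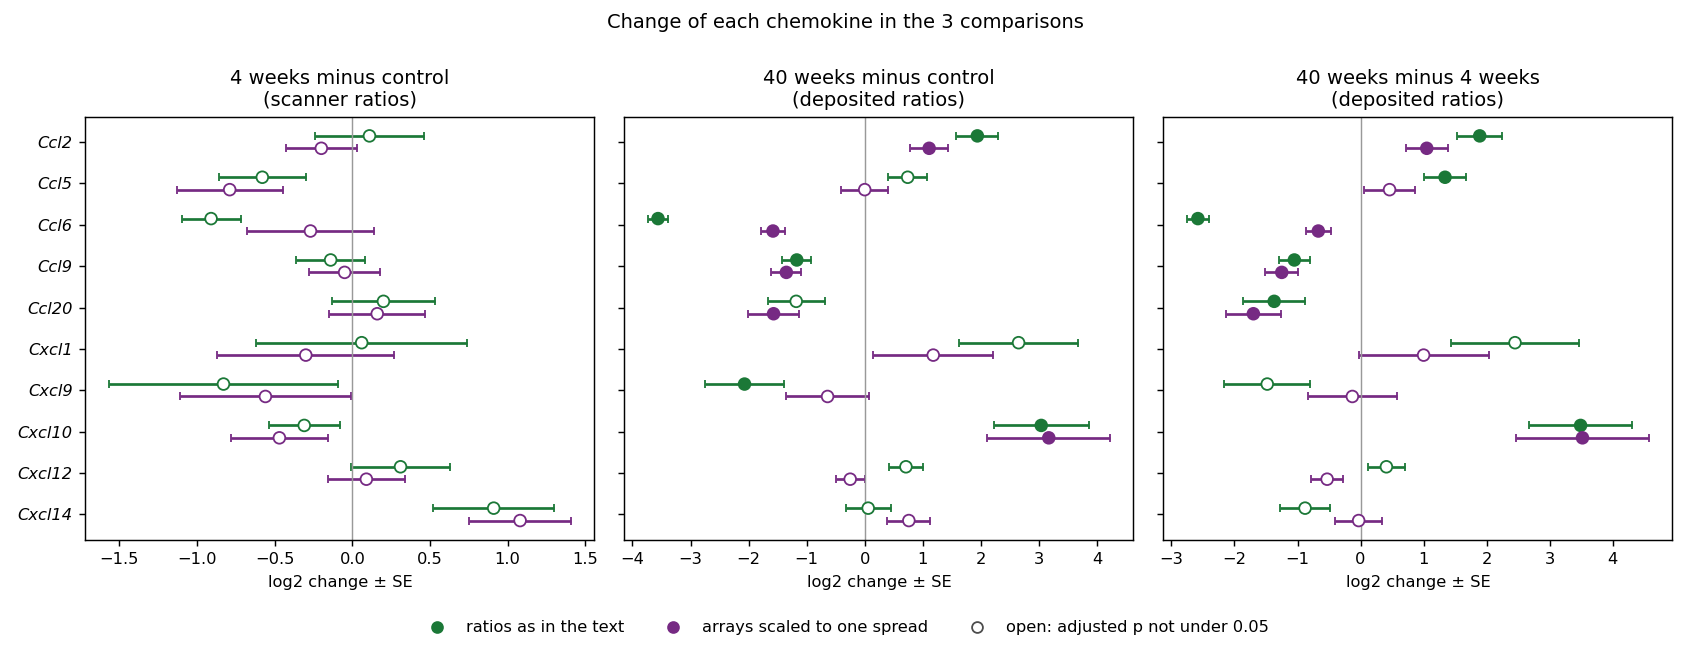
Log2 change ± SE of each chemokine (rows) in the 3 comparisons, with ratios as in the text (green) and after scaling the arrays to one spread (purple); filled points have an adjusted p under 0.05. Cxcl10, Ccl2, Ccl6 and Ccl9 are filled in both settings in both 40-week comparisons, and no point is filled at 4 weeks.

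Cxcl10, the interferon-induced CXCR3 ligand (probe at mm9 chr5:92775781-92775840), had the largest rise of the 10 genes. Its deposited log2 ratios were -3.07, -1.89, -1.50 and -1.80 in controls, -2.75, -2.28, -2.52 and -2.51 at 4 weeks, and -1.73, 0.16, 2.94 and 2.54 at 40 weeks. Replicates 3 and 4 of the 40-week group were far above every other array, replicate 2 was above all control and 4-week arrays, and replicate 1 lay within the control range. The rise over control was 3.04 ± 0.82 log2 units (SE, n = 4 and 4), or 8.23-fold (limma adjusted p = 0.0112), and over 4 weeks 3.49 ± 0.82 (limma adjusted p = 0.00546). After scaling the rise over control was 3.17 ± 1.06 (limma adjusted p = 0.0338) and over 4 weeks 3.52 ± 1.06 (limma adjusted p = 0.0201). With array weights the rise over control was 2.84 ± 1.12 and not called (limma adjusted p = 0.0524). The 1016 genes with a control ratio between -4 and -2, the range of Cxcl10, Ccl5, Ccl2 and the brighter Cxcl12 probe, had a median 40-week change of 0.88, with 94% of them higher, and of -0.03 after scaling. Without 40-week replicates 3 and 4, the rise of Cxcl10 over control was 1.28 ± 0.52 and not called (limma adjusted p = 0.1). Its rise over 4 weeks was then 1.73 ± 0.52 and still called (limma adjusted p = 0.0393). In whole tissue, more cells that make a transcript and more RNA per cell cannot be told apart. At 4 weeks the change in scanner ratio was -0.31 ± 0.23 (limma adjusted p = 0.527), with Cy5 signals of 99.1 to 405.8 in controls and 56.6 to 152.7 after alcohol.

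Cxcl9, the companion CXCR3 ligand induced mainly by interferon gamma, lies near Cxcl10 (probe at mm9 chr5:92752191-92752250) but went the other way in the group means. Its deposited ratios were 3.33, 3.78, 6.09 and 4.65 in controls, 3.91, 4.88, 3.52 and 3.18 at 4 weeks, and 1.41, 1.19, 3.44 and 3.52 at 40 weeks. Control replicate 3, the array with pancreatic and T cell markers, was the highest, and within the 40-week group the same replicates 3 and 4 as for Cxcl10 were high, inside the control range. The fall from control was -2.07 ± 0.68 (limma adjusted p = 0.0287), and it was not called after scaling (-0.64 ± 0.71, limma adjusted p = 0.502) or with control replicates 3 and 4 and 4-week replicate 2 left out (-1.16 ± 0.65, limma adjusted p = 0.19). The 664 genes with a control ratio between 4 and 6, as Cxcl9 has, had a median 40-week change of -1.91, close to that of Cxcl9, and 0.452% of them were higher. The fall of Cxcl9 from control was not called either when any of control replicate 3 (-1.53), control replicate 4 (-2.01), 40-week replicate 1 (-1.74) or 40-week replicate 2 (-1.67) was left out. Without 40-week replicates 3 and 4 it was -3.16 ± 0.69 (limma adjusted p = 0.0105). The difference from 4 weeks was -1.48 ± 0.68 (limma adjusted p = 0.101), -0.13 ± 0.71 after scaling (limma adjusted p = 0.899), and -2.57 ± 0.69 without those replicates (limma adjusted p = 0.0272). Cy3 was well above background on 3 of 8 scanned arrays only, so the size of this ratio depends on background handling: the control mean was 4.46 in the deposited values and 2.71 in the scanner ratios. In Cy5 alone, control signals ran from 113.3 to 1272.6 and 4-week signals from 36.8 to 389.4, and the 4-week change was -0.57 ± 0.54 (limma adjusted p = 0.632).

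Ccl5, a T cell and NK cell product, was measured by 2 probes. The brighter one (mm9 chr11:83339296-83339355) read -2.18, -3.03, -1.48 and -2.18 in controls, -2.96, -2.75, -2.92 and -2.61 at 4 weeks, and -1.99, -2.06, -1.12 and -0.72 at 40 weeks. Every 40-week value was above every 4-week value, and 40-week replicates 1 and 2 lay within the control range. The difference of 40 from 4 weeks was 1.34 ± 0.34 (limma adjusted p = 0.00869), but 0.46 ± 0.40 after scaling (limma adjusted p = 0.39) and 0.78 ± 0.34 without 40-week replicates 3 and 4 (limma adjusted p = 0.122). The second probe gave 0.93 ± 0.39 (limma adjusted p = 0.0699). Against control the 40-week change was 0.74 ± 0.34 (limma adjusted p = 0.101) and 0.00 after scaling. It passed the test without control replicate 3 (0.99, limma adjusted p = 0.0365) and with control replicates 3 and 4 and 4-week replicate 2 left out (1.13, limma adjusted p = 0.046). The 4-week change was -0.58 ± 0.28 (limma adjusted p = 0.317), with a confidence interval of -1.21 to 0.05.

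Ccl2, the monocyte attractant acting on CCR2, rose at 40 weeks. It was printed as 10 spots on every array (probe at mm9 chr11:81850650-81850709), whose log2 ratios had a standard deviation of 0.13 to 0.31 within an array. The deposited ratios were -3.09, -2.79, -4.00 and -2.85 in controls, -3.58, -3.28, -3.47 and -2.20 at 4 weeks, and -1.78, -1.56, -0.63 and -1.01 at 40 weeks. All 4 of the 40-week values were above all 8 others, and 4-week replicate 4 was the highest of those 8. The rise over control was 1.94 ± 0.36, or 3.83-fold (limma adjusted p = 0.00141), and after scaling 1.11 ± 0.33, or 2.16-fold (limma adjusted p = 0.0208). It was 1.51 ± 0.43 without 40-week replicates 3 and 4 (limma adjusted p = 0.0299). The rise over 4 weeks was 1.89 ± 0.36 (limma adjusted p = 0.0018), and 1.05 ± 0.33 after scaling (limma adjusted p = 0.025). Both rises over control exceed the medians of 0.88 and -0.03 given above for genes in this ratio range. At 4 weeks the change was 0.11 ± 0.35 (limma adjusted p = 0.9, interval -0.69 to 0.92).

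Ccl6 gave the smallest p of the 10 genes at 40 weeks. This CCR1 ligand of mouse myeloid cells (probe at mm9 chr11:83401997-83402056) read 6.87, 6.71, 7.28 and 6.56 in controls, 6.11, 5.51, 6.02 and 5.85 at 4 weeks, and 3.10, 3.36, 3.33 and 3.38 at 40 weeks. The 3 groups were fully separate, with controls highest and 40 weeks lowest. The 40-week change from control was -3.56 ± 0.18 (limma adjusted p = 6.08e-07), where the 234 genes with a control ratio over 6 had a median change of -2.72 and 0% of them were higher. After scaling the fall was -1.58 ± 0.20 (limma adjusted p = 0.000206), beside a median of -0.45 for those genes. Against 4 weeks it fell by 2.58 ± 0.18 (limma adjusted p = 8.32e-06), and by 0.67 ± 0.20 after scaling (limma adjusted p = 0.0207). At 4 weeks the scanner ratio changed by -0.91 ± 0.19 (unadjusted p = 0.00109, limma adjusted p = 0.0616). The Cy5 signals, 15890.2 to 31028.3 in controls and 5064.1 to 19554.8 after alcohol, gave a change of -0.16 ± 0.24 by themselves, while Cy3, the same reference RNA on every array, rose by 0.62 ± 0.11 (limma adjusted p = 0.0117). Cy3 signals were 341 to 429.3 in controls and 411.4 to 687.7 after alcohol, so the reference channel moved with the group for this probe.

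Ccl9, another CCR1 ligand of myeloid cells, lies between Ccl5 and Ccl6 on chromosome 11 (probe at mm9 chr11:83388223-83388282). It read 0.10, 0.20, 0.78 and 0.50 in controls, -0.01, 0.05, 0.23 and 0.83 at 4 weeks, and -1.17, -1.03, -0.21 and -0.68 at 40 weeks. All 40-week values were below all others. The fall from control was -1.17 ± 0.25 (limma adjusted p = 0.003), and -1.35 ± 0.26 after scaling (limma adjusted p = 0.00193). The fall from 4 weeks was -1.05 ± 0.25 (limma adjusted p = 0.00581), and -1.25 ± 0.26 after scaling (limma adjusted p = 0.00274). Genes with a control ratio between 0 and 2 had a median 40-week change of -0.30, and -0.11 after scaling. At 4 weeks Ccl9 changed by -0.14 ± 0.22 (limma adjusted p = 0.79). Most macrophage markers fell at 40 weeks, as did Ccl6 and Ccl9: 9 of 13 fell and 1 rose (median -1.41), where 23.7% of all genes tested were called lower. After scaling 6 fell and 1 rose (median -0.71), where 3860 of all 20724 genes were called lower. The list's median ratio on control arrays was 2.36 to 2.99. Genes with a control ratio between 2 and 4 had a median change of -0.93 (0.06 after scaling), and those between 4 and 6 of -1.91 (-0.28 after scaling). Markers of several other cells fell too: 10 of 10 smooth muscle (median -2.17, scaled -0.32), 11 of 12 squamous epithelium (-1.96, scaled -0.64), 8 of 10 endothelium (-1.63, scaled -0.01), 6 of 8 mast cell (-2.18, scaled -0.88) and 6 of 10 dendritic cell markers (-1.28, scaled -0.52). After scaling 1 smooth muscle marker rose and 3 fell, for endothelium 3 rose and 3 fell, and for squamous epithelium 2 rose and 6 fell. Of mast cell and dendritic cell markers 4 each fell and 0 rose. Not all lists fell: as deposited, 3 of 12 T cell markers rose and 0 fell. Of B and plasma cell markers 3 of 8 rose and 1 fell, where 18.9% of all genes tested were called higher. As deposited, 3 of 10 fibroblast, 4 of 8 NK cell and 4 of 7 neutrophil markers fell, and 1 neutrophil marker rose. After scaling 2 T cell markers rose and 0 fell, and 0 B and plasma cell markers rose and 1 fell. Scaled fibroblast markers went the other way, with 3 higher and 1 lower. For NK cell markers 1 then rose and 2 fell, and for neutrophil markers 0 rose and 1 fell. The part of any of these cell types in the falls of Ccl6 and Ccl9 was not tested.

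**Figure D3:**
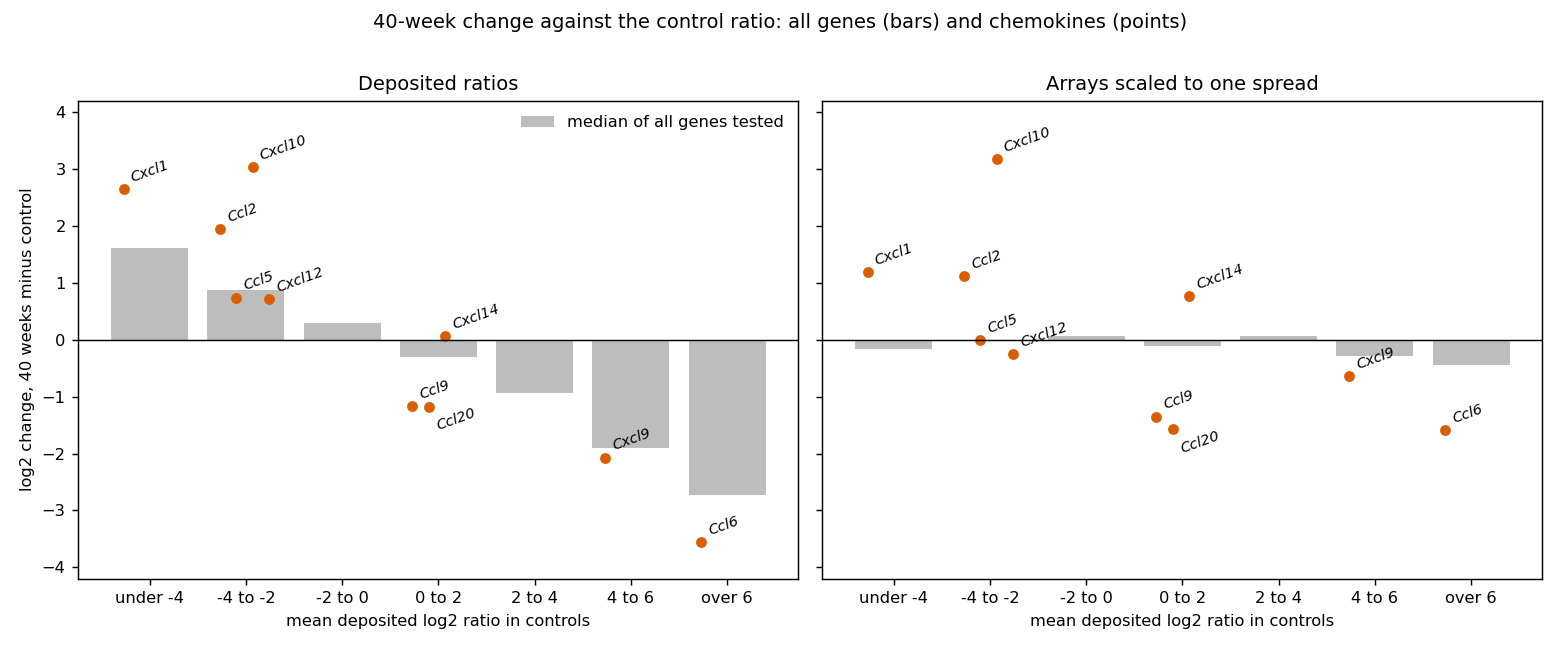
Log2 change from control to 40 weeks (y axis) against the mean deposited log2 ratio in controls (x axis, 7 ranges), with ratios as deposited (left) and after scaling the arrays to one spread (right). Bars give the median of all genes tested in the range and points the chemokines, spread sideways for legibility. Bars go from 1.61 to -2.72 on the left and from -0.45 to 0.07 on the right, and Cxcl10 stands at 3.04 and 3.17.

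Cxcl1, the neutrophil attractant acting on CXCR2, varied widely within every group, with SDs of 1.53, 1.61 and 1.77 (probe at mm9 chr5:91321845-91321904). Its deposited ratios were -6.30, -3.68, -6.64 and -3.97 in controls, -5.96, -5.86, -5.42 and -2.56 at 4 weeks, and -4.51, -2.88, -0.22 and -2.39 at 40 weeks. The groups overlapped: control replicates 2 and 4 were above the lowest 40-week array, and 4-week replicate 4 lay within the middle of the 40-week group. The 40-week change was 2.65 ± 1.02 against control (limma adjusted p = 0.0539) and 1.18 ± 1.03 after scaling (limma adjusted p = 0.39). It passed the test when 1 of control replicates 2 or 4, 4-week replicate 4 or 40-week replicate 1 was left out (2.65 to 3.32, limma adjusted p = 0.0267 to 0.0485). Against 4 weeks it was 2.45 ± 1.02 (limma adjusted p = 0.0718) and 1.00 ± 1.03 after scaling (limma adjusted p = 0.463). The former was called without 4-week replicate 4 (3.25, limma adjusted p = 0.02) or 40-week replicate 1 (3.12, limma adjusted p = 0.0351). The 92 genes with a control ratio under -4 had a median 40-week change of 1.61, and of -0.17 after scaling. At 4 weeks the change was 0.06 ± 0.68 (limma adjusted p = 0.972, interval -1.49 to 1.61), so a difference of either sign could not be resolved. Cy5 signals of Cxcl1 were 43.2 to 464.6 in controls and 51.3 to 327 at 4 weeks, flagged well above background on every scanned array. The dimmest were in the range of the Ccl20 signals. The control mean was -5.15 in the deposited values and -4.46 in the scanner ratios, so it depends on background handling.

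Ccl20, the epithelial ligand of CCR6, lay close to background, with Cy5 signals of 28.7 to 69.1 in controls and 16.1 to 130.8 at 4 weeks (probe at mm9 chr1:83115500-83115559). Cy5 was well above background on 4 control and 2 of the 4-week arrays. The deposited ratios were -0.07, 0.43, -0.66 and 0.62 in controls, -0.66, 1.98, -0.49 and 0.23 at 4 weeks, and -1.28, -0.93, -1.37 and -0.83 at 40 weeks. All 40-week values were below all others, and the highest value was that of 4-week replicate 2, one of the arrays with glandular stomach genes. The change from control was -1.18 ± 0.49 and not called (limma adjusted p = 0.0729), though called after scaling (-1.57 ± 0.44, limma adjusted p = 0.0141). It was called without 4-week replicate 2 (-1.18 ± 0.29, limma adjusted p = 0.00738) and with control replicates 3 and 4 and 4-week replicate 2 left out (-1.28 ± 0.27, limma adjusted p = 0.00617). The fall from 4 weeks was -1.37 ± 0.49 (limma adjusted p = 0.0426), -1.70 ± 0.44 after scaling (limma adjusted p = 0.00882), and -0.80 ± 0.31 without 4-week replicate 2 (limma adjusted p = 0.0641). It was lost on leaving out any of 7 other single arrays as well, control replicates 1 and 2, 4-week replicate 4 and each 40-week array, at changes of -1.46 to -1.28. Without 40-week replicates 3 and 4, Ccl20 was called neither against control (-1.18 ± 0.66, limma adjusted p = 0.216) nor against 4 weeks (-1.37 ± 0.66, limma adjusted p = 0.16).

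Cxcl12, the stromal ligand of CXCR4, gave a different sign by probe. The brighter probe (mm9 chr6:117131227-117131286) read -2.73, -2.54, -3.14 and -1.92 in controls, -2.48, -2.57, -2.61 and -1.45 at 4 weeks, and -1.90, -2.15, -1.68 and -1.75 at 40 weeks. The other probe (mm9 chr6:117124474-117124533), designed on another Cxcl12 transcript, read -1.27, -1.07, -1.73 and -1.11, then -1.25, -1.50, -1.16 and -1.17, then -1.57, -1.98, -1.02 and -1.34. Their 40-week changes from control were 0.71 ± 0.29 (limma adjusted p = 0.067) and -0.18 ± 0.21 (limma adjusted p = 0.497), and the first was -0.25 ± 0.25 after scaling (limma adjusted p = 0.45). The first was called without control replicate 4 (0.93, limma adjusted p = 0.0208) or 4-week replicate 4 (0.71, limma adjusted p = 0.0249). Against 4 weeks it was 0.41 ± 0.29 (limma adjusted p = 0.284), -0.53 ± 0.25 after scaling (limma adjusted p = 0.107), and 0.68 without 4-week replicate 4 (limma adjusted p = 0.0438). The direction at 40 weeks is therefore not settled by these data. At 4 weeks the changes were 0.31 ± 0.32 (limma adjusted p = 0.655) and 0.02 ± 0.16 (limma adjusted p = 0.967).

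Cxcl14, an epithelial chemokine made steadily in squamous tissue, had the largest positive change of the 10 genes at 4 weeks, which did not pass the test (probe at mm9 chr13:56390078-56390137). It read 0.63, 1.68, 1.74 and 2.03 in controls, 2.58, 2.66, 3.06 and 1.53 at 4 weeks, and 1.53, 1.43, 1.00 and 2.36 at 40 weeks. Of the 4-week arrays 3 were above all controls and replicate 4 was below 3 of them. The scanner ratio changed by 0.91 ± 0.39 (unadjusted p = 0.0422, limma adjusted p = 0.258). Cy5 alone changed by 1.52 ± 0.46 (limma adjusted p = 0.164) and Cy3 by 0.53 ± 0.15 (limma adjusted p = 0.0563). At 40 weeks the change from control was 0.06 ± 0.39 (limma adjusted p = 0.914, interval -0.79 to 0.90) and from 4 weeks -0.88 ± 0.39 (limma adjusted p = 0.0891). After scaling these were 0.76 ± 0.37 (limma adjusted p = 0.123) and -0.03 ± 0.37 (limma adjusted p = 0.958), so scaling exchanges which of them is near 0. The difference from 4 weeks, unscaled, was called without 4-week replicate 4 (-1.19, limma adjusted p = 0.023) or 40-week replicate 4 (-1.14, limma adjusted p = 0.0419).

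**Figure D4:**
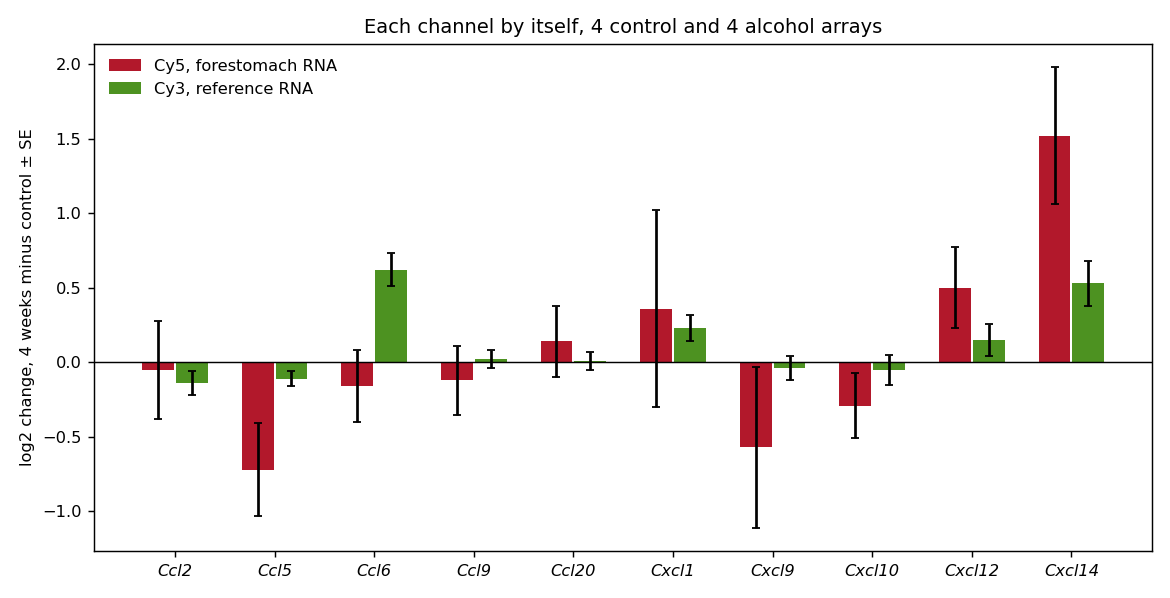
Log2 change from control to 4 weeks (y axis, bars ± SE, n = 4 and 4) of each chemokine in the forestomach channel (Cy5, red) and in the reference channel (Cy3, green), each fitted by itself. Cxcl14 has the tallest Cy5 bar (1.52), and Ccl6 has the tallest Cy3 bar (0.62) beside a Cy5 bar of -0.16.

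Across arrays, 7 of the 10 genes (Ccl2, Ccl5, Ccl9, Cxcl1, Cxcl9, Cxcl10 and Cxcl12) were higher on both 40-week replicates 3 and 4 than on both of replicates 1 and 2, as were 23.6% of all genes tested. These arrays were set apart after their values were seen. The median ratio of the 22 interferon gamma targets tested was 1.00 and 1.36 on replicates 3 and 4, against -0.09 and 0.00 on replicates 1 and 2. The B and plasma cell markers (8 tested) had medians of -0.26 and -0.53 there against -2.04 and -1.60, and the T cell markers (12 tested) 0.52 and 1.04 against 0.21 and -0.02. The NF-kB and interleukin target list (17 tested) had medians of 0.12 and -0.35 against -0.84 and -0.67. The part of cell makeup and of sex in the chemokine values was not tested.

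**Figure D5:**
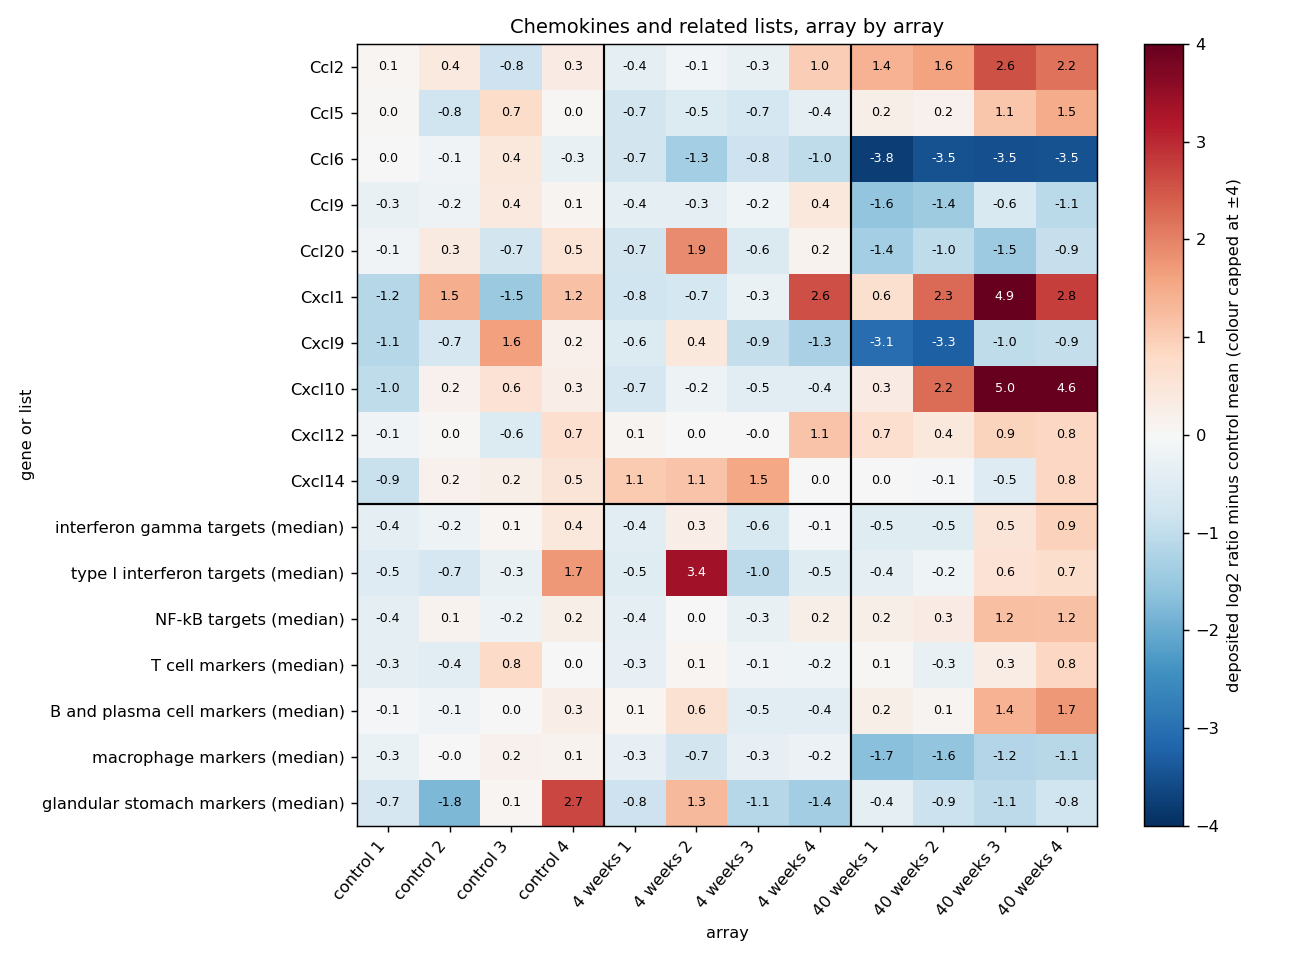
Deposited log2 ratio minus the control mean (colour and printed value, colour capped at ±4) for the 10 chemokines and for the median of 7 gene lists (rows) on the 12 arrays (columns). Values of Cxcl10, Cxcl1, interferon gamma targets and B and plasma cell markers are highest on 40-week replicates 3 and 4, and type I interferon targets on 4-week replicate 2.

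Likeness was measured as Pearson's r of deviations from the group means over the 12 arrays, which share any tissue carried along, and is given as a description. For each member the nearest gene is named, which has the highest r among all named genes tested. How high such an r runs by chance was not tested. Ccl5 ran most like Susd3 (r = 0.974). Cxcl9 ran most like P2ry10 (0.961), and Cxcl10 most like Tnfrsf13c (0.941). Cxcl1 ran most like Icam1 (0.956), an NF-kB target of endothelium, and Ccl2 most like Cdr2l (0.953). For Ccl6 the nearest gene was Tmprss13 (0.957), for Ccl9 Olfr1006 (0.941), for Ccl20 Sco1 (0.964), for Cxcl12 Adgra1 (0.941) and for Cxcl14 Ap2s1 (0.909). Among the members themselves Ccl2 and Cxcl1 had r = 0.905, Ccl2 and Cxcl12 0.835, Ccl5 and Cxcl9 0.777 and Cxcl9 and Cxcl10 0.739, while Ccl6 and Ccl20 had -0.811.

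Of the 31 other chemokines listed, 20 were tested, and at 40 weeks 1 rose and 6 fell against control. Of all genes tested, 18.9% were called higher and 23.7% lower, so the list shows no excess of calls. Ccl3, an inflammatory CC chemokine, rose by 1.11 (limma adjusted p = 0.000326) but changed by -0.06 after scaling. Ccl11, the eosinophil attractant, fell by 2.33 (limma adjusted p = 1.98e-06) but changed by -0.09 after scaling, and Ccl21a, the lymphatic ligand of CCR7, fell by 2.39 (limma adjusted p = 6.84e-06) and by 0.86 after scaling. Xcl1, Ccl8, Cxcl13 and Ccl25 fell by 2.26, 1.62, 1.78 and 0.45, with scaled changes of -1.44, -0.21, -0.57 and -1.04, of which those of Xcl1 and Ccl25 were called. Their median change was -0.37, and the median over all genes -0.08. Against 4 weeks 3 rose (Ccl4 by 2.68, Ccl3 by 1.01 and Cx3cl1 by 0.47), beside 18.6% of all genes, and 2 fell (Ccl11 by 1.47 and Ccl21a by 1.32), beside 23.0%. After scaling none of these 5 kept its call in that direction: the changes of Ccl4, Ccl3, Cx3cl1 and Ccl21a were 0.78, -0.18, -0.33 and 0.10 and not called, and Ccl11 was called higher (0.71).

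Of 23 receptors listed, 19 were tested, and at 40 weeks 0 rose and 8 fell against control, where 23.7% of all genes were called lower. After scaling 0 rose and 4 fell, where 3860 of all 20724 genes were called lower, so that share is near the background. Genes with a control ratio between 4 and 6, as Ackr1 has, had a median change of -1.91 (-0.28 after scaling). For those between 2 and 4, as Ackr4 and Cx3cr1 have, it was -0.93 (0.06 after scaling). Ackr1, the endothelial decoy receptor, changed by -2.19 (limma adjusted p = 0.000252; -0.76 after scaling), Ackr4 by -2.09 (limma adjusted p = 2.62e-06; -1.07 after scaling) and Cx3cr1, the receptor of resident macrophages, by -1.89 (limma adjusted p = 3e-05; -1.21 after scaling). Ccr2, the receptor of Ccl2, fell by 1.06, but its scaled change was 0.96 and not called. Against 4 weeks, 1 receptor rose and 5 fell as deposited, beside 18.6% and 23.0% of all genes. But 4 rose and 3 fell after scaling and 3 rose and 4 fell with quantile normalisation, so the balance of directions is not settled.

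At 40 weeks 4 of 22 interferon gamma targets rose against control and 0 fell, a share near the 18.9% of all genes called higher. They were Gbp4 (1.15, scaled 1.23), Gbp5 (1.26, scaled 2.75), Gbp6 (1.62, scaled 2.17) and Cd274 (0.81, scaled 0.48 and not called). Without 40-week replicates 3 and 4, 0 rose and 2 fell, and the list's median went from 0.08 to -0.49. Of 17 type I interferon targets, 0 were called by limma at 40 weeks against control, and 2 had an unadjusted p under 0.05. Such a p was reached by 10543 of all 20724 genes. With control replicates 3 and 4 and 4-week replicate 2 left out, 6 of the 17 rose. Of 17 NF-kB and interleukin targets, 6 rose and 0 fell (Relb, Tnfaip2, Nfkbiz, Tnf, Tnfaip3 and Zc3h12a, at 0.76 to 1.74). Of all genes, 18.9% were called higher. After scaling 5 rose and 1 fell, where 4071 of all 20724 genes were called higher. Without 40-week replicates 3 and 4, 3 rose. For fits with arrays left out, no share of all genes is given. The list's median ratio on control arrays was -1.40 to -0.96, and its median 40-week change was 0.68 (0.55 after scaling). Genes with a control ratio between -2 and 0 had a median change of 0.29 (0.07 after scaling), and 73.3% of them were higher. The scaled changes of Tnf (0.05) and Tnfaip3 (0.67) were not called. At 4 weeks limma called 0 genes of any of these 5 lists, and 11 of their 95 tested genes had an unadjusted p under 0.05, all of them lower. Of all 20724 genes tested, 3728 had such a p, so the lists show no excess.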

How the data were processed

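Cy5 carried forestomach RNA and Cy3 a commercial mouse reference RNA on all 12 Agilent arrays, per the labels, with no dye swap. Scanner files of the 8 control and 4-week arrays hold spot and background intensity, processed intensity and other values (flags of 0 or 1), per the file headers. The headers name Feature Extraction 10.7.3.1 and the submitters' processing notes 9.1. The deposited table holds log2 ratios for all 12 arrays. On the 8 scanned arrays it matched the background-subtracted log2 ratio minus a smooth curve within 0.05 for 97.23% to 99.95% of probes, while the processing of the 40-week columns is not stated in those sources. Deposited columns have medians of 0.000 to 0.067, and probes not above local background on a scanned array hold exactly 0. The 8 scanned columns hold 633 to 1629 exact zeros, and the 40-week columns 67 to 141. Whether dim probes were handled otherwise in the 40-week columns was not tested. 40-week scanner files were not analysed here.

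Scanner signals were corrected by normexp (offset 50) and loess in limma 3.58.1 (R 4.3.3). Probes with Cy5 well above background on at least 3 of 4 arrays of a scanned group were kept (30455 probes), and the brightest probe stood for each of 20724 genes. The 4-week comparison used limma on scanner ratios, the 40-week comparisons limma on deposited ratios of all 12 arrays, and adjusted p-values (Benjamini-Hochberg over all genes) under 0.05 were called. Fits were also run on simulated data with few changed genes and the same spread in every group. The 40-week data differ on both points, so that run cannot bear on the 40-week calls. The members and gene lists were chosen with earlier results of these data known. All 10 members, each list's counts and, by likeness, the nearest genes are named. Alternatives covered background, normalisation, channel, scaling, filter, weights, a replicate block and left-out arrays. The number of arrays limits the precision.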

Additional observations from a re-analysis of the deposited data

Results flagged for a closer look

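On 2 of 36 sets of 4 arrays, 1 array lay far from the other 3, and chance alone gives about 1 set in 20. Both are 4-week replicate 4. For Cxcl1 its deposited log2 ratio was -2.56 against -5.42 for the nearest array, a gap of 0.84 of the whole range. For the brighter Cxcl12 probe it was -1.45 against -2.48, a gap of 0.882 of the range. That array also had the lowest median Cy5 signal, 42.4, and the part of that in these values was not tested.

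For 6 genes the 2 alcohol groups differed from each other by limma, which is also the difference of their changes from the shared controls. The difference of 40 from 4 weeks was 3.49 for Cxcl10, 1.89 for Ccl2, 1.34 for Ccl5, -1.05 for Ccl9, -1.37 for Ccl20 and -2.58 for Ccl6, in log2 units, with every 40-week array on one side of every 4-week array. Both traits are common: 41.6% of all genes tested were called in this comparison, and 45.2% had groups that did not overlap. After scaling, the Ccl5 difference was not called (0.46), and those of Ccl2 (1.05) and Ccl6 (-0.67) were smaller. The Ccl20 difference was not called under 11 of 21 alternatives, and that of Ccl5 under 3 of 22.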

How the results depend on the processing

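Of the 10 genes, 0 were called at 4 weeks under the main settings, but 1 (Ccl6, lower) without background correction and with Agilent processed signals. In Cy3 alone the Ccl6 probe was called in the opposite direction (0.62), and in Cy5 alone it was not called (-0.16). Values in Cy3 alone, here and among the signs below, describe the reference RNA and not the forestomach. At 40 weeks against control, 5 were called, and 8 with the replicate block, although the samples share only a number: same-numbered arrays had correlations of -0.436 to 0.415 (median 0.0755), and 5 of 12 arrays correlated best with their own number in another group. Over leave-one-out fits the count stayed at 0 at 4 weeks, ran from 4 to 7 at 40 weeks against control and from 5 to 8 against 4 weeks. Signs turned at 4 weeks for Ccl2 (-0.17 with median centring, -0.20 scaled, -0.05 in Cy5, -0.14 in Cy3, -0.10 with array weights and -0.08 without 3 arrays, control replicates 3 and 4 and 4-week replicate 2), Cxcl1 (-0.09 with median centring, -0.30 scaled and -0.31 with array weights), Ccl6 (0.62 in Cy3), Ccl9 (0.02 in Cy3 and 0.17 without the 3 arrays) and Ccl20 (-0.05 with array weights and -0.20 without the 3 arrays). Leaving out single arrays gave -0.19 to 0.27 for Ccl2, -0.58 to 0.37 for Cxcl1 and -0.16 to 0.35 for Ccl20. At 40 weeks against control, signs turned for Cxcl12 (-0.25 scaled, -0.20 with quantile normalisation), Ccl5 (0.00 scaled) and Cxcl14 (-0.17 with array weights, -0.04 without 40-week replicates 3 and 4, and -0.24 to 0.25 over single arrays left out), and against 4 weeks for Cxcl12 (-0.53 scaled, -0.50 with quantile normalisation). The cause was not tested. Ccl2, Ccl6 and Ccl9 kept direction and call under all 22 alternatives of both 40-week comparisons, and Cxcl10 under 20 of 22 against control (lost with array weights, 2.84, limma adjusted p = 0.0524, and without 40-week replicates 3 and 4). Dim signals limit Ccl20 and Cxcl9, and on several arrays Cxcl1.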
